A study of Mus musculus with 32 samples.

Results

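The synaptic organisers described here were the leucine-rich repeat transmembrane genes Lrrtm1, Lrrtm2, Lrrtm3 and Lrrtm4, the neurexins Nrxn2 and Nrxn3, and the neuroligins Nlgn1, Nlgn2 and Nlgn3. Every array row annotated with 1 of these symbols and no other was taken, which gave 9 of 16755 gene-level features and 95 of 188590 exon probe sets, the small groups of probes that each read a stretch of transcript. The hippocampus was profiled on exon arrays in 8 male Sicd2-ISCL4 mice (ISCL4 mice) and 8 male FVB-like littermates, aged 6 to 8 weeks, with both hippocampi of a mouse combined into 1 RNA sample. Sicd2 is a locus of chromosome 15 for susceptibility to seizure-induced cell death. In a subcongenic line only a small stretch of the donor chromosome remains in the genome of the recipient strain, and the comparison addresses which transcripts differ when that stretch is present. The labels name 1 subcongenic line, record no seizure or other treatment, and do not give the bounds of the donor stretch. None of the 9 genes lies on chromosome 15. Lrrtm1 and Lrrtm4 lie on chromosome 6, Lrrtm2 on 18, Lrrtm3 on 10, Nrxn2 on 19, Nrxn3 on 12, Nlgn1 on 3, Nlgn2 on 11 and Nlgn3 on X.

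Neurexins sit in the presynaptic membrane and reach across the cleft to postsynaptic partners, among them the neuroligins and the Lrrtm proteins. Such a pairing helps to assemble release sites on one side and receptors on the other. Lrrtm proteins act at excitatory synapses, and Lrrtm4, which is abundant in granule cells of the dentate gyrus, also binds the heparan sulphate chains of glypicans and neurexins.

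Values are log2 signals, and differences are ISCL4 minus FVB-like, fitted with array set as a covariate. The arrays came in 2 sets that differ in how their files were named, set A with replicates 1 to 4 and set B with replicates 5 to 8 of each group. Array medians lay between 7.29 and 7.34 at gene level, and pairs of arrays correlated at 0.973 to 0.995 across features. Of 7 measured markers of neurons, 7 had a signal above the median of all features, as had 6 of 7 of dentate granule cells and 4 of 4 of CA1 pyramidal cells. A feature was called where limma's Benjamini-Hochberg adjusted p over all features of its level was under 0.05. The 9 genes were selected on the group difference of Lrrtm4 in these same arrays, so their differences between the groups are given with 95% intervals as a description, and their calls support nothing. In tissue RNA, fewer cells of a type and less RNA per cell cannot be told apart.

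Lrrtm4 was lower in ISCL4 mice than in littermates, and it was the 1 gene of the 9 whose groups did not overlap. Its gene-level signal (transcript cluster 6947211) ran from 8.85 through a median of 8.92 to 9.08 in ISCL4 mice. In FVB-like littermates it ran from 9.14 through 9.20 to 9.33. All 8 ISCL4 mice lay below all 8 littermates. The group means were 8.94 ± 0.077 and 9.23 ± 0.081 (SD, n = 8 each), a difference of -0.29 (SE 0.043, 95% interval -0.38 to -0.20), or a signal 1.22-fold higher in littermates. Set A gave -0.28 and set B -0.30, and with 4 mice per group in either set alone Lrrtm4 was not called. Across the array, 0.119% of gene-level features had groups that did not overlap and 0.292% were called. Of the 9 genes, 1 was called.

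**Figure D1:**
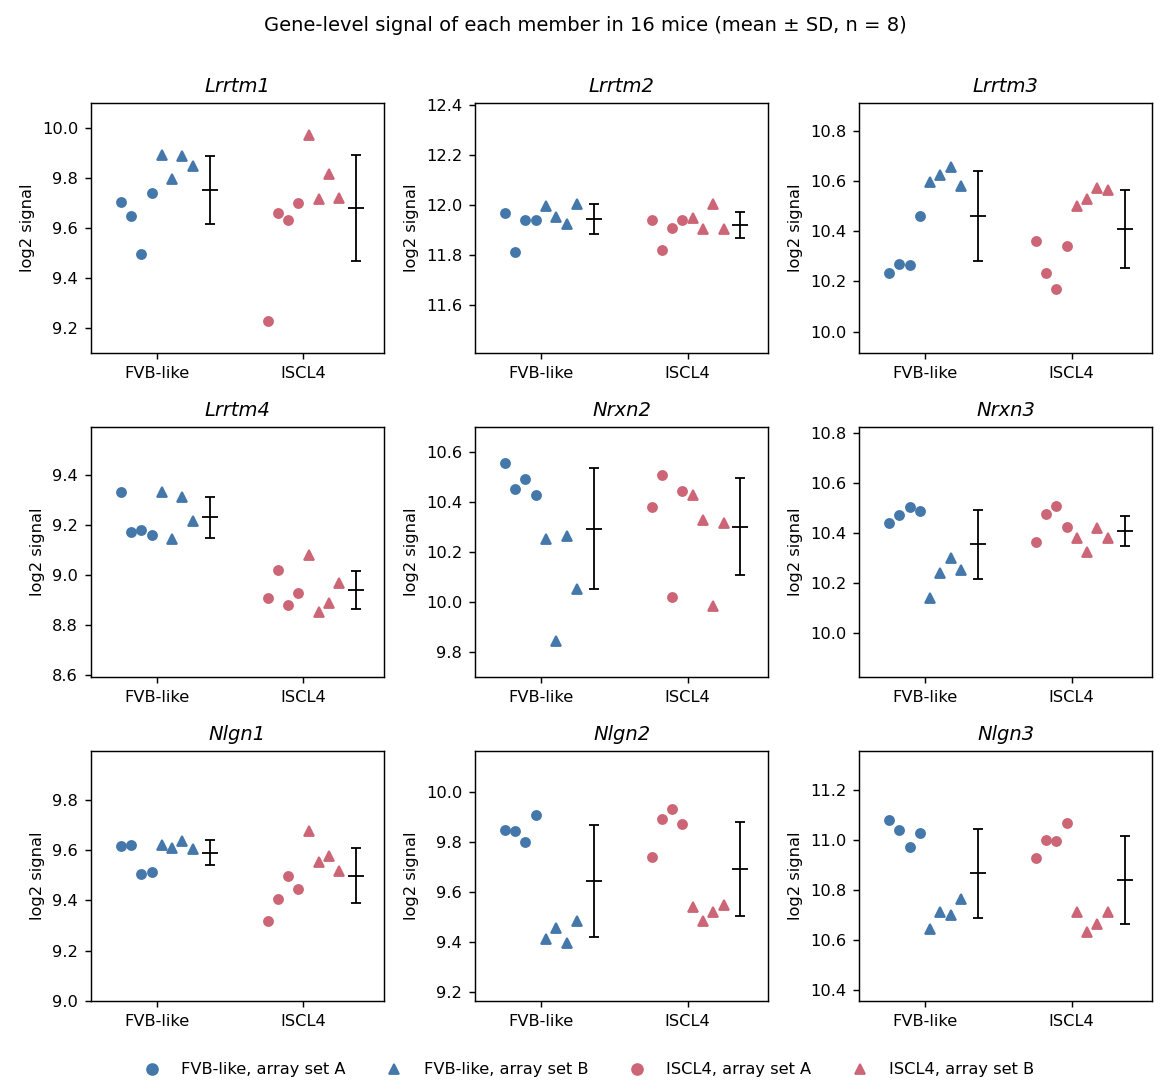
Gene-level log2 signal of the 9 genes in each of 16 mice, with 1 panel per gene, groups along the x axis, circles for array set A and triangles for set B, and black bars for mean ± SD (n = 8). Every y axis spans 1 log2 unit; the groups are apart in Lrrtm4 and overlap in the other panels, where several genes split by array set.

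All 7 probe sets of Lrrtm4 were lower in ISCL4 mice, by unequal amounts. Probe set 4460063 ran from 11.14 through 11.44 to 11.66 in ISCL4 mice and from 11.37 through 11.61 to 11.79 in littermates. Its groups overlapped over all mice but were apart within each array set. Within set A the ISCL4 mice lay at 11.58 to 11.66 and the littermates at 11.72 to 11.79. Within set B the ranges were 11.14 to 11.30 and 11.37 to 11.51. Its difference was -0.17 (95% interval -0.28 to -0.06). It was the 1 probe set of the 95 with groups apart, in the same direction, within both sets, against 0.244% of all probe sets.

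Probe set 4369677 of Lrrtm4 differed by -0.24 (-0.41 to -0.08), and all 8 ISCL4 mice were below the littermate mean of their own set. Probe set 5170951 differed by -0.17 (-0.32 to -0.02), again with 8 of 8 mice below. The intervals of 3 other probe sets included 0. They were 4350402 at -0.11 (-0.24 to 0.01), 5194233 at -0.23 (-0.48 to 0.02) and 4695212 at -0.09 (-0.31 to 0.13), and the last was lower in set A only, by -0.21 against 0.03 in set B. For every Lrrtm4 probe set other than 4695212 the difference was negative in both array sets.

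The largest difference of an Lrrtm4 probe set came from its dimmest, 5388173. Its signal ran from 4.23 through 4.95 to 5.89 in ISCL4 mice and from 5.33 through 5.67 to 7.41 in littermates. The groups overlapped, and the spread within them was wide, with means of 4.97 ± 0.61 and 5.99 ± 0.73 (SD, n = 8). The difference was -1.02 (SE 0.30, 95% interval -1.65 to -0.38), or -0.67 in set A and -1.37 in set B. Its mean signal of 5.48 was below 6.20, the 25th percentile over all probe sets, and no detection call was used, so part of such a signal can be background. At exon level 0.0249% of all probe sets were called, and 0 of the 7 Lrrtm4 probe sets were. Groups that did not overlap over all mice were found in 0.0546% of all probe sets and in 0 of these 7.

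**Figure D2:**
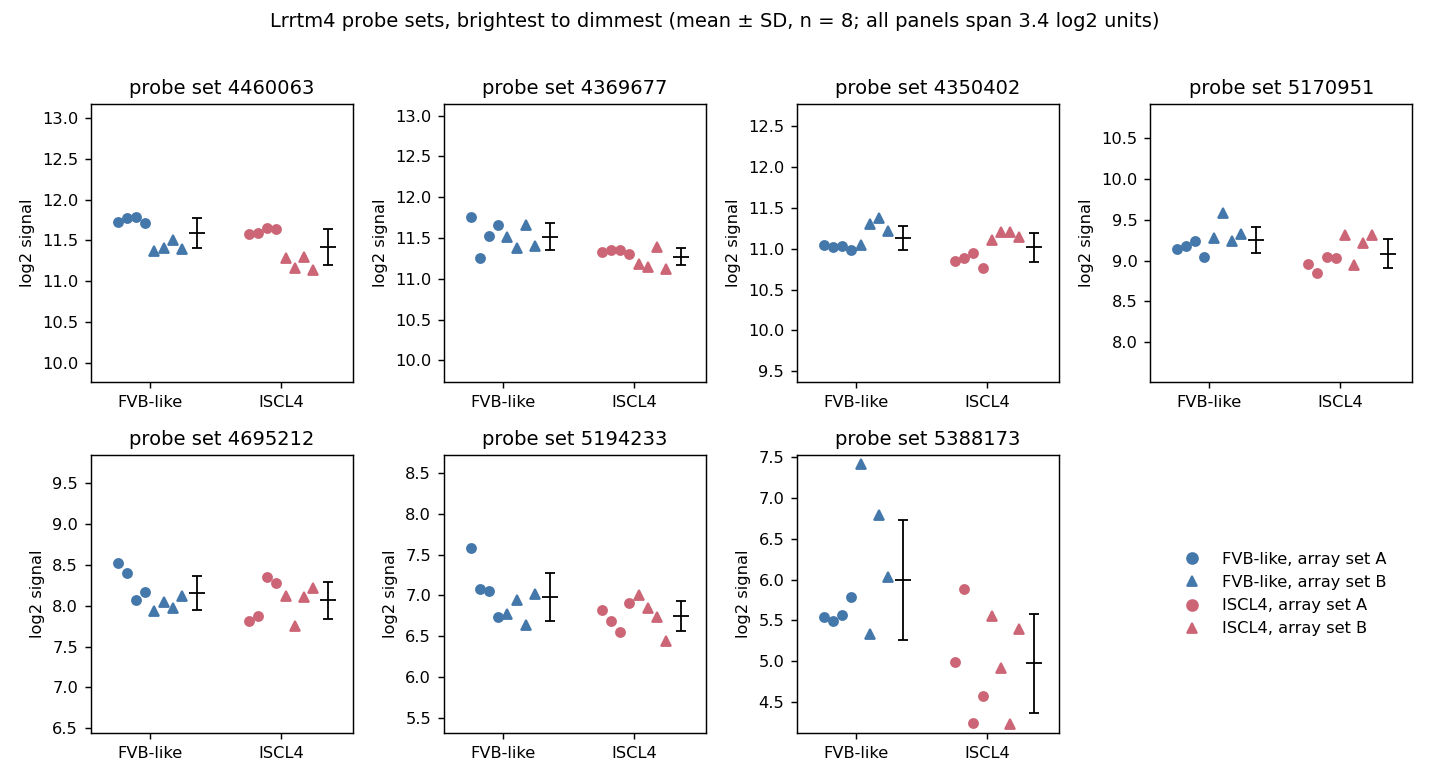
Log2 signal of the 7 Lrrtm4 probe sets in each of 16 mice, 1 panel per probe set from brightest to dimmest, with circles for array set A, triangles for set B and black bars for mean ± SD (n = 8). All panels span the same number of log2 units; ISCL4 means are lower in each, and the spread is widest in the dimmest, 5388173.

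The gene-level value was the plain mean of the probe sets. It equalled that mean within 0.001 on the log2 scale in all 9 genes and in 13594 of 14499 genes with 1 feature and annotated probe sets (93.8%). A dim probe set therefore weighed as much as a bright one. Probe set 5388173 alone made up 50.1% of the gene-level difference of Lrrtm4.

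The mean of the other 6 Lrrtm4 probe sets ran from 9.51 through 9.61 to 9.67 in ISCL4 mice and from 9.65 through 9.76 to 9.96 in littermates. The groups then overlapped, although all 8 ISCL4 mice stayed below the littermate mean of their own set. The difference was -0.17 (SE 0.041, 95% interval -0.26 to -0.08), 1.12-fold higher in littermates, with -0.21 in set A and -0.13 in set B. Without 5388173 Lrrtm4 was not called, and with all dim probe sets left out of every gene, where 0.522% of 13985 genes were called, it was not called either. It was called with any of the other 6 left out in turn, at differences of -0.32 to -0.30.

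Lrrtm1, a neurexin-binding organiser of excitatory synapses, ran from 9.23 through 9.71 to 9.97 in ISCL4 mice and from 9.50 through 9.77 to 9.89 in littermates. The groups overlapped, and the lowest value was that of ISCL4 replicate 1. The difference was -0.07 (95% interval -0.21 to 0.07), and -0.02 without that mouse. As in Lrrtm4, the dimmest probe set had the largest difference: 4724174, at a mean signal of 6.14, differed by -0.49 (-0.96 to -0.01) and made up 96.9% of the gene-level difference. The mean of the other 6 Lrrtm1 probe sets differed by -0.003 (-0.10 to 0.10).

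Lrrtm2, which binds neurexins at excitatory synapses, was read by 1 probe set and was among the steadiest of the 9 genes. It ran from 11.82 through 11.92 to 12.003 in ISCL4 mice and from 11.81 through 11.95 to 12.004 in littermates, with a difference of -0.02 (-0.09 to 0.05). The groups lay almost on top of each other. Lrrtm3, a close relative of Lrrtm4, ran from 10.17 through 10.43 to 10.57 in ISCL4 mice and from 10.23 through 10.52 to 10.66 in littermates. Its difference was -0.05 (-0.13 to 0.03), and 5 of its 6 probe sets were lower, of which 5159638 had the interval below 0, at -0.19 (-0.34 to -0.04).

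Lrrtm1, Lrrtm2 and Lrrtm3 lie inside alpha-catenin genes, which link cadherins to actin. The host of Lrrtm1, Ctnna2, differed by -0.14 (SE 0.041, limma's adjusted p = 0.162), with -0.23 in set A and -0.04 in set B. The host of Lrrtm2, Ctnna1, differed by -0.03 (adjusted p = 0.809) and that of Lrrtm3, Ctnna3, by 0.01 (adjusted p = 0.979). None of the 3 hosts passed. Of the measured genes that neighbour Lrrtm4 in the RefSeq order of GRCm38.p6, Reg1 and Reg3g lay on one side, with differences of 0.19 and 0.11. On the other side Gcfc2 differed by -0.02 and Mrpl19 by 0.005, and none of these neighbours passed (limma's adjusted p 0.416 to 0.973). Around Lrrtm2, Hspa9 differed by -0.02, Ctnna1 by -0.03, Sil1 by -0.01 and Matr3 by -0.17, the last with adjusted p = 0.108 by limma. No neighbour of either gene passed.

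Among the presynaptic partners, Nrxn2 ran from 9.99 through 10.35 to 10.51 in ISCL4 mice and from 9.85 through 10.35 to 10.55 in littermates. The groups covered nearly the same range, with a difference of 0.01 (95% interval -0.18 to 0.20), and the sets ran in opposite directions, with -0.14 for set A and 0.16 for set B. Its dimmest probe set, 4499433, had a mean signal of 5.29 and ran from 2.72 to 5.95 in ISCL4 mice and from 2.89 to 6.6 in littermates. Across mice the gene-level value followed this probe set (r = 0.95 between deviations from group and set means, 16 mice, with the probe set a part of the gene-level value).

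With 4499433 left out, the spread of Nrxn2 within groups and sets narrowed from 0.178 to 0.066 (residual SD), and the difference was 0.07 (-0.003 to 0.15), positive in both sets. Of the other 6 Nrxn2 probe sets, 5 were higher in ISCL4 mice, and the intervals of 4418677 at 0.19 (0.02 to 0.35) and 4724109 at 0.23 (0.09 to 0.37) lay above 0. None was called. The 3 probe sets named as dimmest, of Lrrtm1, Lrrtm4 and Nrxn2, were the only ones of the 95 below the 25th percentile of signal.

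Nrxn3 ran from 10.33 through 10.40 to 10.51 in ISCL4 mice and from 10.14 through 10.37 to 10.50 in littermates. The groups overlapped, with a difference of 0.05 (-0.03 to 0.14). It differed between the sets in sign, at -0.03 in set A and 0.14 in set B. Higher signals in ISCL4 mice were found for 20 of its 24 probe sets, but 5 were higher in both sets, and 0 intervals excluded 0. The test of the group difference between sets did not pass for Nrxn3 (limma's interaction term, adjusted p = 0.686) or for any of the other 8 genes (adjusted p 0.810 to 0.989).

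**Figure D3:**
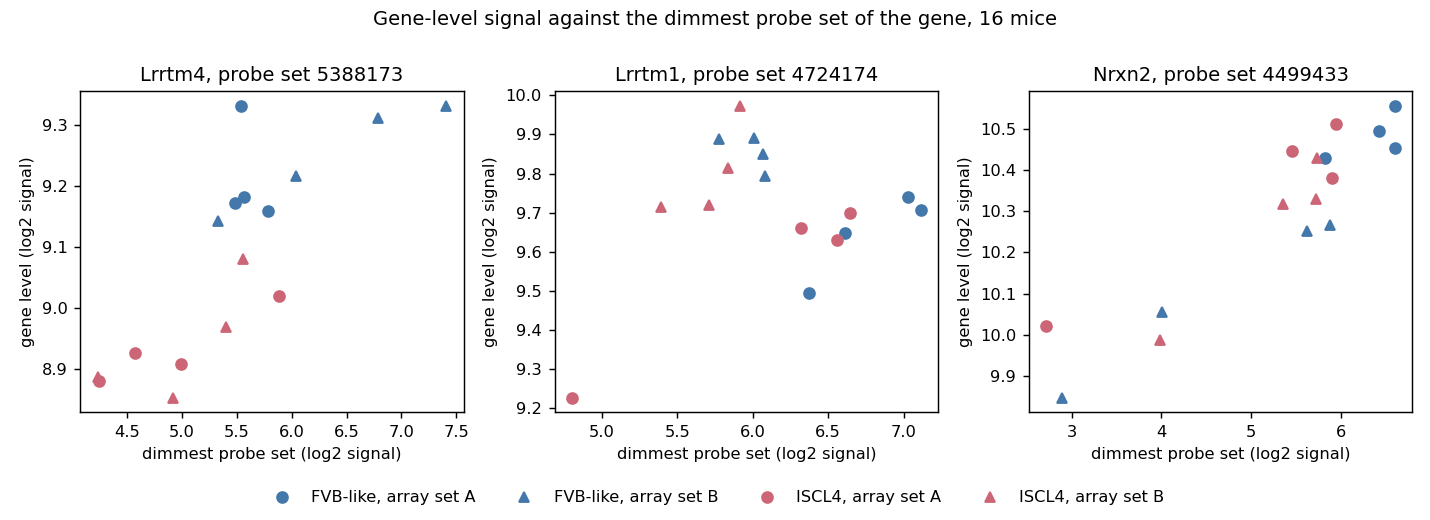
Gene-level log2 signal (y axis) against the log2 signal of the dimmest probe set of the same gene (x axis) for Lrrtm4, Lrrtm1 and Nrxn2, with 1 point per mouse (16 mice), circles for array set A and triangles for set B. The lowest gene-level values of Lrrtm1 and Nrxn2 belong to mice whose dimmest probe set was lowest or near it; its signal is part of the gene-level mean.

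Of the neuroligins, Nlgn1, which acts at excitatory synapses, had the largest difference. It ran from 9.32 through 9.51 to 9.68 in ISCL4 mice and from 9.51 through 9.61 to 9.64 in littermates. The groups overlapped, yet 7 of 8 ISCL4 mice were below the littermate mean of their own set. The difference was -0.09 (95% interval -0.17 to -0.01), -0.15 for set A and -0.04 for set B, and it was not called. Of its 17 probe sets, 14 were lower in ISCL4 mice and 9 were lower in both sets. The intervals of 4 lay below 0: 5220191 at -0.27 (-0.43 to -0.11), 5608386 at -0.26 (-0.45 to -0.07), 4870934 at -0.22 (-0.38 to -0.05) and 4642057 at -0.15 (-0.28 to -0.02). In 5220191 and 5608386 all 8 ISCL4 mice were below the littermate mean of their set.

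Nlgn2, the neuroligin of inhibitory synapses, ran from 9.49 through 9.64 to 9.93 in ISCL4 mice and from 9.40 through 9.64 to 9.91 in littermates. The groups overlapped across the whole range, with a difference of 0.05 (-0.02 to 0.12). Its probe set 5607295 was 0.30 higher (0.10 to 0.50), with all 8 ISCL4 mice at or above the littermate mean of their set, and 10 of 15 probe sets were higher. Nlgn3, which is found at excitatory and inhibitory synapses, ran from 10.63 through 10.82 to 11.07 in ISCL4 mice and from 10.64 through 10.87 to 11.08 in littermates. Its difference was -0.03 (-0.09 to 0.04), and 0 of its 11 probe sets had an interval that excluded 0.

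Over the 9 genes, 6 differences were negative, with a median of -0.03, beside 47.9% negative and a median of 0.00 over all gene-level features. An unadjusted p under 0.05 was found for 2 of the 9, Lrrtm4 and Nlgn1, beside 14.4% of all features. Lrrtm4 was in that count by the selection, which leaves Nlgn1 alone among the other 8. Over the 95 probe sets, 48 were lower and 47 higher, with a median of -0.01. The intervals of 13 excluded 0, against 10.2% of all probe sets with an unadjusted p under 0.05. Of these 13, 8 belonged to Lrrtm4 or Nlgn1. Lrrtm4, the gene of the selection, gave 4, so the 13 cannot be read against that share as a trait of the 9 genes. No probe set was called.

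**Figure D4:**
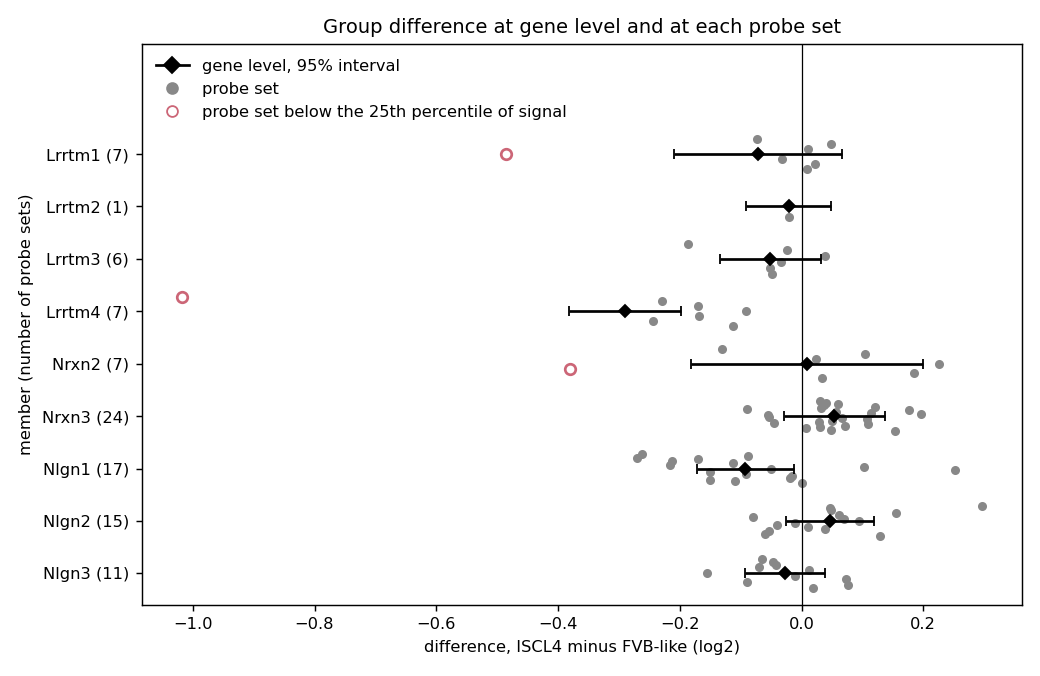
Differences between the groups (ISCL4 minus FVB-like, log2, x axis) for each gene (y axis, number of probe sets in brackets). Black diamonds are gene-level differences with 95% intervals, grey dots are probe sets, and open circles are the 3 probe sets below the 25th percentile of signal; the Lrrtm4 open circle is at -1.02, while its other probe sets lie between -0.24 and -0.09.

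The difference between array sets was not used to choose the genes and could be tested. It passed for 6 of the 9, beside 46.4% of all gene-level features (limma's adjusted p, n = 8 mice per set). Lrrtm3 was higher in set B by 0.29 (SE 0.039, adjusted p = 2.77e-05) and Lrrtm1 by 0.23 (SE 0.065, adjusted p = 0.00906). Nlgn2 was lower in set B, with a difference of -0.37 (set B minus set A, adjusted p = 4.61e-07), as were Nlgn3 at -0.32 (adjusted p = 8.17e-07) and Nrxn3 at -0.15 (adjusted p = 0.00463). In each of these 5 genes the fitted difference between array sets was larger than that between the groups of mice. With the median of the probe sets of each gene in place of the mean, Lrrtm3 was at 0.13 and no longer passed (adjusted p = 0.0535), Lrrtm1 was at 0.47 and Nrxn3 at -0.25.

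Nlgn1 was higher in set B by 0.11 (limma's adjusted p = 0.0252), a call that was lost with quantile normalization (0.08, adjusted p = 0.122) or median centring (0.10, adjusted p = 0.0525) and without ISCL4 replicate 5 (0.09, adjusted p = 0.0514). With the median of probe sets it turned to -0.02 (adjusted p = 0.853). Nrxn2, at -0.23, missed the threshold (adjusted p = 0.0504) and passed with both of those scalings. Lrrtm2 and Lrrtm4 did not pass, at 0.05 and 0.03 (adjusted p = 0.277 and 0.640). With the median of probe sets Lrrtm4 was higher in set B by 0.22 and passed (adjusted p = 0.0178). The labels do not say how the sets differ otherwise.

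Mouse-to-mouse variation within group and array set differed widely among the 9 genes. The residual SD was 0.048 for Nlgn3, 0.052 for Nrxn3, 0.053 for Nlgn2, 0.054 for Lrrtm2 and 0.060 for Nlgn1. It was 0.073 for Lrrtm3, 0.084 for Lrrtm4, 0.138 for Lrrtm1 and 0.178 for Nrxn2. The last 3 are the genes with a dim probe set.

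Deviations of each mouse from its group and set mean were then correlated over 16 mice. Of the 8 pairings with Lrrtm4, Nrxn2 had the highest Pearson's r at 0.71, which did not pass (permutation p = 0.00697, adjusted over 8 pairs 0.0558). Spearman's rho of the same pair was 0.83 (permutation p = 0.000270, adjusted 0.00216). The permutations shuffled mice within group and set and took no account of likeness between mice with the same replicate number. Without the 2 mice farthest from the median of Lrrtm4, r was 0.73. Within set A, r was 0.62 and within set B 0.77 (exact permutation p = 0.0799 and 0.0521, adjusted 0.639 and 0.208, 8 mice each), and neither passed.

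With the dimmest probe set of each gene left out, r between Lrrtm4 and Nrxn2 was 0.16 (permutation p = 0.610) and rho 0.20. Both probe sets were left out together, and the part of each in the relation was not tested. The other 7 pairings with Lrrtm4 lay between -0.26 and 0.43, and none passed (adjusted permutation p 0.381 to 0.963). None of the 28 pairs among the remaining genes passed either (lowest adjusted permutation p 0.288).

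The 5 genes whose deviations were most like those of Lrrtm4 over the 16 arrays were Mtmr9 (r = 0.89), Lrrc6 (0.88), Tsc22d1 (0.88), Rgs12 (0.85) and Ncstn (0.84), given without a test. Mtmr9 encodes a myotubularin-related protein, Rgs12 a regulator of G protein signalling and Ncstn nicastrin, a subunit of gamma-secretase. Their r was 0.56 to 0.83 with the dimmest Lrrtm4 probe set and -0.05 to 0.33 with the mean of the other 6. Within Lrrtm4, the dimmest probe set and the mean of the other 6 had r = -0.49.

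Other genes of the pathway were taken in 5 lists, of which 87 of 101 genes were measured, by 88 features. None was called (limma's lowest adjusted p = 0.0692), and 12 features had an unadjusted p under 0.05, which is 13.6% beside 14.4% of all features. The median difference was 0.01, with 40 features lower. Among other partners of neurexins or neuroligins, such as cerebellins, latrophilins and neurexophilins, 6 of 18 were lower, with a median of 0.02. Of the 18, 0 had an unadjusted p under 0.05. The smallest p values of that list belonged to Clstn3 (0.06), Mdga2 (-0.05) and Adgrl3 (-0.04).

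Of 23 features for other organisers and their presynaptic receptors, 10 were lower, with a median of 0.02 and 6 at an unadjusted p under 0.05. Flrt1, a leucine-rich repeat adhesion protein that binds latrophilins, had 8.92 ± 0.075 in ISCL4 mice and 8.72 ± 0.094 in littermates (SD, n = 8), a difference of 0.20 (SE 0.044, limma's adjusted p = 0.0692). It did not pass, and passed with dim features left out before adjustment (adjusted p = 0.0392). Lrrc4c, the netrin-G ligand NGL-1, differed by -0.32 (SE 0.082, limma's adjusted p = 0.117) and Ptprd, a presynaptic receptor phosphatase, by -0.11 (adjusted p = 0.165). Neither passed.

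Of 24 glypicans, syndecans and enzymes of heparan sulphate, the sugar that Lrrtm4 binds, 11 were lower, with a median of 0.00 and 2 at an unadjusted p under 0.05. The smallest p values were those of Ndst2 (0.09), a sulphotransferase, Extl2 (-0.10) and Ext1 (-0.08), glycosyltransferases of the chain, and none passed (limma's adjusted p 0.287 to 0.355). Of 20 features of scaffold genes, 11 were lower, with a median of -0.03 and 3 at an unadjusted p under 0.05. Cask, which binds the tails of neurexins, differed by -0.12, Lin7c, its partner, by -0.09 and Gphn, the scaffold gephyrin of inhibitory synapses, by -0.07 (limma's adjusted p 0.188 to 0.334), and none passed.

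**Figure D5:**
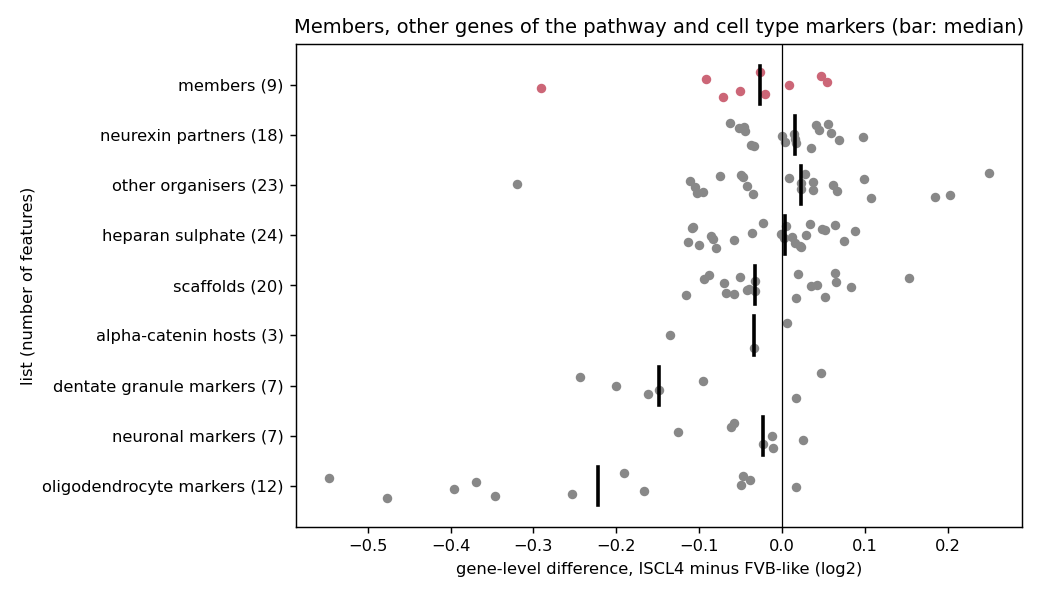
Gene-level differences (ISCL4 minus FVB-like, log2, x axis) of the 9 genes, the 5 pathway lists and 3 marker lists (y axis, number of features in brackets). Each dot is 1 feature and the black bar is the median of its list; the medians of the pathway lists lie between -0.03 and 0.02, and that of oligodendrocyte markers is -0.22.

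Markers of dentate granule cells, which express Lrrtm4, were mostly lower in the same mice. Of the 7 measured, 5 were lower in ISCL4 mice, with a median of -0.15. Calb1, the calcium buffer calbindin, differed by -0.16, Npnt by -0.20, Tdo2 by -0.24, Lct by -0.15 and Prox1, the transcription factor that defines these cells, by -0.10, while Trpc6 was at 0.05 and C1ql2 at 0.02 (limma's adjusted p 0.145 to 0.940). The Tdo2 means of 5.28 and 5.52 were below 5.77, the 25th percentile of gene-level signal. None of the 7 was called and 4 had an unadjusted p under 0.05. The mean level of the 7 was 7.99 to 8.15 in ISCL4 mice and 8.10 to 8.27 in littermates, ranges that overlap, and it was lower by -0.08 in set A and -0.14 in set B. The part of these markers in the Lrrtm4 difference was not tested.

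Of the oligodendrocyte markers 11 of 12 were lower, with a median of -0.22, 8 of them at an unadjusted p under 0.05, and a mean level of 9.11 to 9.67 in ISCL4 mice and 9.40 to 9.87 in littermates. For neurons in general 6 of 7 were lower, with a median of -0.02. For CA1 pyramidal cells 0 of 4 were lower (median 0.09), for CA2 cells 2 of 4 (0.01), for CA3 cells 3 of 7 (0.01) and for interneurons 1 of 9 (0.05). For astrocytes 4 of 8 were lower (0.01), for microglia 4 of 8 (-0.002), for endothelium 3 of 5 (-0.002) and for thalamus 1 of 3 (0.01). Unadjusted p was under 0.05 for 2 of 7 neuron, 0 of 4 CA1, 1 of 4 CA2 and 2 of 7 CA3 markers. So it was for 3 of 9 interneuron markers, all higher in ISCL4 mice. The same held for 2 of 8 astrocyte, 0 of 8 microglia and 1 of 5 endothelium markers, beside 14.4% of all features.

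Markers of tissue next to the hippocampus were lower in 7 of 7 for choroid plexus (-0.18), 8 of 8 for meninges (-0.13) and 7 of 7 for striatum (-0.18). Those of thalamus, given above, were lower in 1 of 3. An unadjusted p under 0.05 was found for 0 of 7 choroid plexus, 3 of 8 meninges, 0 of 7 striatum and 0 of 3 thalamus markers. On striatal markers FVB-like replicate 2 stood apart, at a mean level of 9.02 against 7.98 to 8.16 in the other littermates. The mean level of these markers differed by -0.27 in set A, which holds that mouse, and by -0.03 in set B. FVB-like replicate 2 was also the highest of 16 mice on markers of thalamus (8.92), CA3 (8.63), CA2 (9.14) and oligodendrocytes (9.87). On CA1 markers it was the lowest (9.23). Without that mouse Lrrtm4 differed by -0.30, given as a description. No marker of any list was called by limma's adjusted p, and their part in the differences of the 9 genes was not tested.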

How the data were processed

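The authors deposited log2 signals of 16 exon arrays, in a gene-level and an exon-level table, so 32 samples stand for 16 mice. The tools named, per the submitters' processing notes, are RMA and Partek 6.6, with build mm9, and their roles are not given in the sources used here. Symbols came from the platform annotation (14996 gene-level features with 1 symbol, 1019 with several, 740 with none). All 14996 matched RefSeq genes of GRCm38.p6, a build other than the files', so it gave names, chromosomes and gene order only.

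Group and replicate came from the sample titles and array set from the names of the array files. All features were fitted with limma 3.58.1 (R 4.3.3, lmFit and eBayes) on group and array set, with Benjamini-Hochberg adjustment over each level. Correlations used deviations from group and set means, with 100000 permutations within group and set, or exact enumeration within a set. The fits were also run on simulated data with noise drawn independently for each feature and array. Those data hold no deviations shared between mice, so the run does not vouch for the fits where mice share them. The genes and lists were chosen with earlier results of these data known. Named were all 9 genes, the 3 genes of each pathway list with the smallest p, the 5 genes most correlated with Lrrtm4, 2 measured neighbours on each side of Lrrtm4 and Lrrtm2, and counts of 14 marker lists. Single dentate granule markers were named after their values were seen. The number of arrays limits the precision.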

Additional observations from a re-analysis of the deposited data

Results flagged for a closer look

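Among the gene-level values of the 9 genes and the Lrrtm4 probe sets, 3 of 32 groups of 8 mice held a mouse far from the other 7, by the gap to its nearest neighbour over the whole range. That is 9.38% of these groups, beside 3.74% over all gene-level features, and chance flags about 1 in 20. Lrrtm1 in ISCL4 replicate 1 was at 9.23, while the other 7 ISCL4 mice lay at 9.63 to 9.97. Lrrtm2 in FVB-like replicate 2 was at 11.81, while the other littermates lay at 11.92 to 12.004. Lrrtm4 probe set 5194233 in FVB-like replicate 1 was at 7.59, while the other littermates lay at 6.64 to 7.08.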

How the results depend on the processing

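The Lrrtm4 difference stayed negative under every alternative tried. The genes were selected on this difference, so its calls and adjusted p values below are a description and support nothing. The difference was -0.29 and called at gene level, and the number of the 9 genes called was 1. That number was 0 in array set A alone (Lrrtm4 at -0.28), in set B alone (-0.30), with the median of the probe sets of each gene (-0.17) and with the mean of those probe sets not below the 25th percentile of signal (-0.17, limma's adjusted p = 0.0781), the last chosen after seeing the data. Each set alone holds 4 mice per group. Leaving out probe set 5388173 from Lrrtm4 alone, also chosen after seeing the data, gave -0.17 (adjusted p = 0.106). With each mouse left out in turn Lrrtm4 lay between -0.31 and -0.27 and stayed called (adjusted p 0.00545 to 0.0221), and the count of called genes stayed 1. With the replicate block Lrrtm4 was -0.29 (limma's adjusted p = 0.0321) and the count stayed 1. The numbers were not taken as pairs, since the labels tie nothing to them and 6 of 8 same-numbered pairs, not all, had deviations that correlated above 0.1 (-0.05 to 0.25). As a hint from the data, 10 of 16 mice correlated best with their own number, which the permutations of the correlations did not take into account. The count of called probe sets was 0 under each setting run at exon level. For the pathway lists it was 0, and 1, Flrt1, with dim features left out (adjusted p = 0.0392), with an intensity trend and robust fit (0.0322) and with the mean of brighter probe sets (0.0483). The count of genes that differed between array sets was 6 to 7, of changing membership: over 23 settings Lrrtm1, Nrxn3, Nlgn2 and Nlgn3 passed in 23, Lrrtm3 in 22, Nlgn1 in 19, Nrxn2 in 10, Lrrtm4 in 1 and Lrrtm2 in 0. For the other 8 genes, 295 alternative values gave 0 calls. Of these, 4 moved by more than the spread between mice: Nrxn3 in set A (-0.03) and set B (0.14), and Nlgn1 (-0.15) and Nlgn2 (0.18) with the median of probe sets. The sign changed in 14, of which 11 were in Nrxn2, between -0.14 and 0.16. The cause was not tested.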
